A study of Mus musculus with 605 samples.

Results

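The keratin gene family was described over single cells from the dorsal skin of mice. The members are the protein-coding genes whose symbol is Krt, a number and at most 1 letter, which gave 51 keratins among the 31002 gene identifiers in the tables. Of these, 28 encode type I and 23 encode type II keratins. RNA from 605 single cells, caught in the chambers of microfluidic chips, was made into full-length cDNA and sequenced. There are 7 groups. Bulge cells came from wild-type (WT) mice at postnatal day 30 (P30) and day 56 (P56) and from mutant (Mut) mice at P56, and melanocytes and myeloid cells came from WT and Mut mice at P56.

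Per the study's methods, Mut mice carry Tyr-Nras Q61K, in which the tyrosinase promoter, active in pigment cells, drives an oncogenic Ras. The Mut bulge cells were taken from skin that holds these mutant melanocytes. For its bulk profiles the study sorted WT and Mut bulge cells that were GFP+, CD34+ and low in P-cadherin from mice with K14-H2B-GFP, a nuclear green reporter that the Krt14 promoter drives. It does not restate the sort for the single bulge cells. That sort uses the promoter of 1 member of the family. WT follicles are in anagen, the growth phase, at P30 and in telogen, the resting phase, at P56. The study reports that Mut skin at P56 holds both anagen and telogen follicles. Hair phase therefore cannot be told apart from genotype between the P56 groups. How single melanocytes and myeloid cells were sorted is not stated in what was read here. No label names an animal, so each group counts as 1 sample. The labels give a group and a well but name no plate or chip, so a batch by group cannot be told apart from genotype and age. No test between groups was made, and every difference below is a description of these cells.

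Keratins are the intermediate filament proteins of epithelial cells. A type I chain pairs with a type II chain, and the pairs assemble into filaments that are anchored at desmosomes and hemidesmosomes. Basal keratinocytes and the outer root sheath are known for Krt5 and Krt14, the bulge for Krt15, suprabasal epidermis for Krt1 and Krt10, simple epithelia for Krt8 and Krt18, and each layer of the hair follicle for a set of its own. In the mouse genome (GRCm38), 27 type I genes lay on chromosome 11 within 1037.1 kb, and the 23 type II genes lay on chromosome 15 within 657.0 kb. Krt18 was the type I gene that lay beside the type II genes on chromosome 15.

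After limits on total TPM, mitochondrial share and genes per cell, 84 WT P30, 83 WT P56 and 89 Mut P56 bulge cells were kept, with 81 WT and 84 Mut melanocytes and 73 WT and 72 Mut myeloid cells. TPM is transcript abundance per length, scaled within a cell. It can be compared between genes but keeps no read depth. The depth of each cell is therefore unknown, and genes detected per cell stand in for it, with medians of 3191.5, 4271 and 4425 in the WT P30, WT P56 and Mut P56 bulge cells. All 12 keratinocyte genes other than keratins that were listed were found in 10% or more of every bulge group. RNA of Cd34, the surface marker of that sort, was found in 11.9%, 9.64% and 46.1% of the WT P30, WT P56 and Mut P56 cells. Markers of melanocytes, myeloid, T, fibroblast or endothelial cells summed to at least 100 TPM in 18, 27 and 28 bulge cells of the 3 groups. Without those cells the Krt14 difference of Mut and WT P56 cells, given below as -2.98, was -2.93.

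Most keratins were absent or rare in the bulge tables. Detection means 1 TPM or more in a cell, and 15, 11 and 16 keratins passed it in 10% or more of WT P30, WT P56 and Mut P56 cells. In all, 21 keratins reached that share in some bulge group and 8 reached it in every one, namely Krt5, Krt10, Krt14, Krt15, Krt16, Krt17, Krt32 and Krt80. Another 18 were found in some bulge cell but stayed under 10% of each group, at most 6.02%, which was Krt78 in WT P56 cells. The other 12 were found in no bulge cell, and 9 of those in no cell of any of the 7 groups. A bulge cell held a median of 7 detected keratins at P30 and of 6 in each P56 group, with a range of 2 to 12 over the 3 groups.

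**Figure D1:**
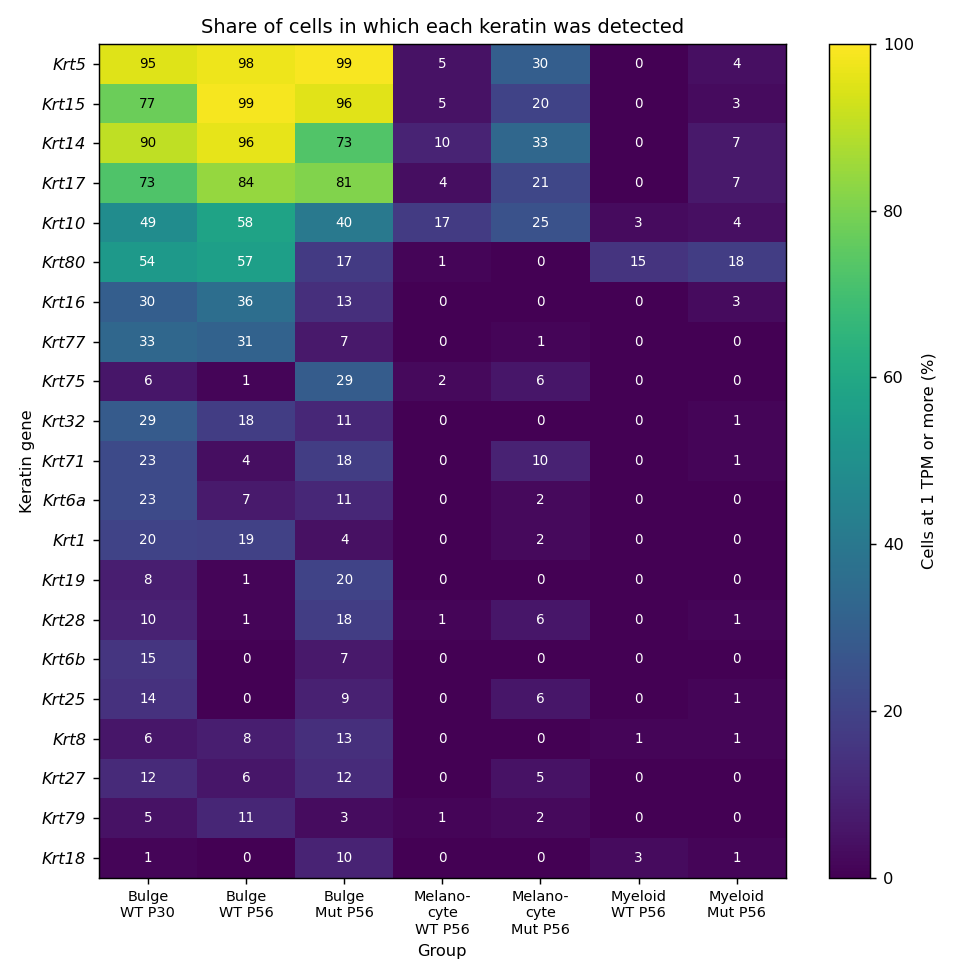
Share of cells in percent at 1 TPM or more, for the keratins found in 10% or more of a group (rows) in each of the 7 groups (columns). Krt5, Krt14, Krt15 and Krt17 are high in the 3 bulge columns, and the 2 myeloid columns hold Krt80 at 15.1% and 18.1% and little else.

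Keratins took a smaller share of the RNA in Mut bulge cells. They made up a median of 2.84% of TPM in WT P30 cells (0.00763% to 11.2%), 2.24% in WT P56 cells (0.289% to 6.72%) and 1.11% in Mut P56 cells (0.0899% to 4.99%). The ranges overlapped widely, so the groups differed in their middle and not as separate sets of cells. Both ends of the P30 range were single unusual cells. The lowest held 60.7 TPM of keratins, none of the keratinocyte genes and 17327 TPM of 6 fibroblast markers. The highest held inner root sheath keratins almost alone and is described with them below. Without these, the P30 range was 0.388% to 5.28%.

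**Figure D2:**
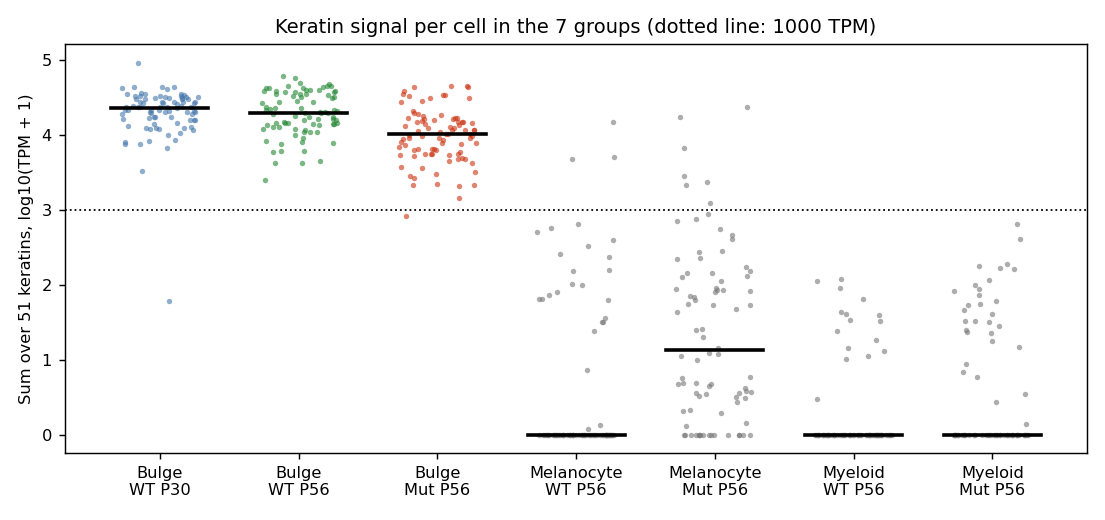
Keratin TPM summed over 51 genes, 1 point per cell on a log axis, for the 7 groups. Bulge cells lie high, and 3 WT and 7 Mut melanocytes reach 1000 TPM while no myeloid cell does.

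The keratins of the basal layer and outer root sheath, Krt5, Krt14, Krt15 and Krt17, carried 90.1%, 95.5% and 93.8% of all keratin TPM in the WT P30, WT P56 and Mut P56 bulge cells. Among them Krt14 differed most between Mut and WT cells, and Krt5 and Krt15 were higher at P56 than at P30 in WT cells. Their levels are given first, and the differences after them.

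Krt14, the type I partner of Krt5 in basal keratinocytes, lies on chromosome 11 (100203162-100207548, minus strand). It ran from 0 to 26189.8 TPM in WT P30 cells with a median of 8396 TPM, from 0 to 40373 with a median of 7224 in WT P56 cells, and from 0 to 26594 with a median of 587 in Mut P56 cells. It was detected in 90.5% (95% exact interval 82.1 to 95.8), 96.4% (89.8 to 99.2) and 73.03% (62.6 to 81.9) of the cells, where intervals cover counting error only. Krt14 was thus high in nearly all WT cells and spread from 0 to the WT level in Mut cells. At least 1000 TPM was reached by 83.3% and 92.8% of the WT P30 and WT P56 cells and by 43.8% of the Mut cells. The mean was 9392 ± 7437 TPM (SD over 84 cells) in WT P30, 9883 ± 8547 (83 cells) in WT P56 and 3207 ± 5766 (89 cells) in Mut P56.

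Krt5, the type II chain of basal cells, lies on chromosome 15 (101707070-101712898, minus strand). Its median was 1565 TPM in WT P30 cells (0 to 4084), 4200 in WT P56 cells (0 to 16563) and 1926 in Mut P56 cells (0 to 10908). It was detected in 95.2%, 97.6% and 98.9% of the cells, so that the groups differed in its level and hardly in its presence. The highest P30 cell lay below the median of the WT P56 cells.

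Krt15, a type I keratin used as a marker of bulge stem cells, lies on chromosome 11 (100131758-100135928, minus strand). Its median was 4845 TPM in WT P30 cells (0 to 21632), 5554 in WT P56 cells (0 to 19536) and 3181 in Mut P56 cells (0 to 13324). It was detected in 77.4% (66.95 to 85.8), 98.8% (93.5 to 99.97) and 95.5% (88.9 to 98.8) of the cells. In the P30 group 13 cells were listed at 0 TPM, against 1 WT P56 and 3 Mut P56 cells. Where it was detected, its median was 7864 TPM at P30, 5562 in WT P56 and 3418 in Mut P56 cells. The mean over all cells was 5739 TPM at P30 and 5999.6 TPM at P56 in WT cells.

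Krt17, a type I keratin of the outer root sheath and of injured epidermis, lies on chromosome 11 (100256217-100261029, minus strand). Its median was 725 TPM in WT P30 cells (0 to 27476), 555 in WT P56 cells (0 to 7651) and 839.6 in Mut P56 cells (0 to 38804). Medians were close while the upper ends were not. The mean was 4309 ± 6094 TPM (SD over cells) in WT P30, 1190.3 ± 1500.4 in WT P56 and 2817 ± 5105 in Mut P56, and the upper quartile was 7588, 2147 and 3811 TPM.

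**Figure D3:**
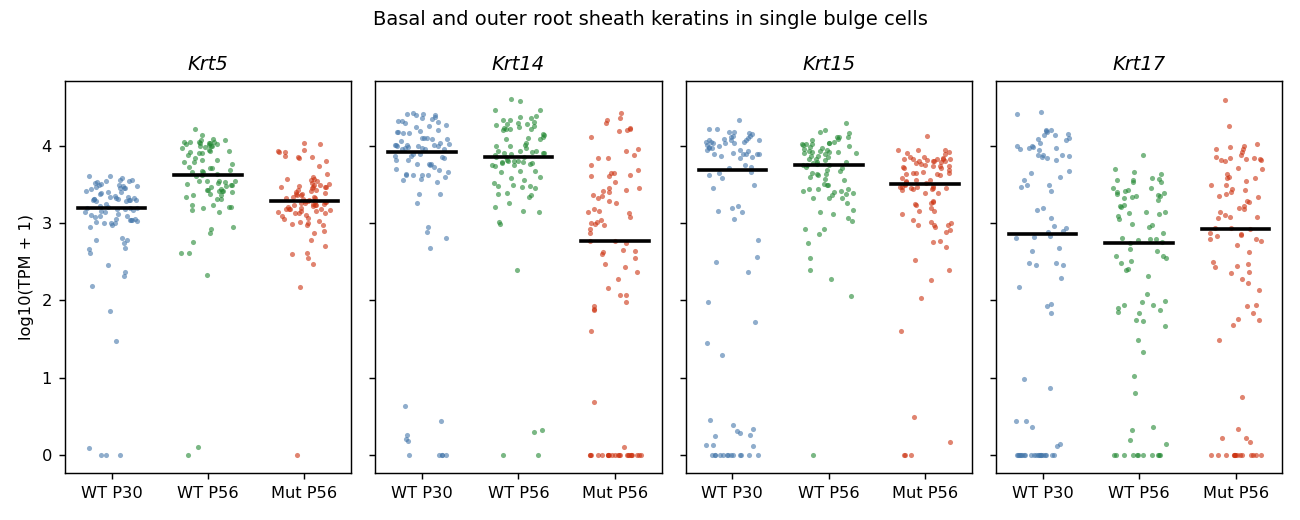
TPM of Krt14, Krt5, Krt15 and Krt17 in each kept bulge cell (points, log axis) by group, with the median as a line. The Mut P56 cells of Krt14 have a median of 587 TPM against 8396 and 7224 TPM in the WT groups, and cells without Krt15 are most frequent at P30.

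Differences between groups were taken between means of log2(TPM scaled to 10000 per cell + 1), a scale that understates changes of low genes, and a difference of at least 1 was called past the fold. Of the 19 keratins that 10% or more of either P56 group held, Krt14 was the 1 past the fold, lower in Mut than in WT P56 cells by 2.98 (means 3.09 and 6.08). Over all 10666 genes compared, 0.694% were lower and 0.441% were higher past the fold, and a count of 1 keratin is too small to read against it. Krt5 and Krt15 were lower by less, with differences of -0.90 and -0.83, and Krt17 had a difference of 0.60 in the other direction. The median over the 19 keratins was -0.05, beside 0.01 over all genes. Over the alternatives run, the Krt14 difference lay between -4.60 (pseudocount on TPM as deposited) and -1.62 (ratio of mean TPM).

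The other comparisons of bulge cells reuse the same groups and are therefore not separate evidence. Against WT P30 cells, Mut P56 cells again had 1 of 20 keratins past the fold, Krt14 with -2.78, where 0.502% of 10165 genes were lower and 0.728% higher. The difference of Krt5 in this pair was 0.47. That of Krt15 was 0.43 and turned to -0.64 by the ratio of mean TPM. Between the WT groups, P56 minus P30, 2 of 16 keratins were past the fold, both higher at P56, where 0.751% of 9856 genes were higher and 0.426% lower, again a count too small to read. These were Krt5 with 1.37 and Krt15 with 1.26, while Krt17 had -0.82, Krt6a had -0.68 and Krt14 had 0.21.

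The Krt15 difference between the WT ages depended on the scale and the cells. By the ratio of mean TPM it was 0.06 on the log2 scale, and among cells with 3000 to 5000 genes detected it was 0.94, under the fold. All kept P30 cells had a median of 3191.5 genes detected, against 4271 at P56.

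A group of genes that respond early to stimulation, among them Fos, also differed between the bulge groups. Of 12 such immediate early genes, a list added after the data were seen, 11 were lower past the fold in Mut than in WT P56 cells (median -2.17) and 9 were higher in WT P56 than in WT P30 cells (median 1.72). In Mut against WT P30 cells 4 were lower past the fold, with a median of -0.47. Fos was detected in 86.9%, 98.8% and 65.2% of the WT P30, WT P56 and Mut P56 cells. Such genes are known to be induced while tissue is dissociated, and their part in the keratin differences was not tested.

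The Mut cells that lacked Krt14 RNA still held Krt5 and Krt15. Krt14 was below 1 TPM in 8 of 84 WT P30, 3 of 83 WT P56 and 24 of 89 Mut P56 cells, and 23 of these Mut cells were listed at exactly 0. All 24 of these Mut cells held at least 100 TPM of Krt15, and 23 held at least 100 TPM of Krt5. Krt5 without Krt14, at a limit of 100 TPM, was the state of 32.6% of the Mut cells, against 5.95% and 3.61% of the WT P30 and WT P56 cells. In the 24 cells the median of Krt5 was 1140.1 TPM against 2280.4 TPM in the other 65 Mut cells, and that of Krt15 was 2834 against 3574 TPM. Krt17 differed more, detected in 50% of the 24 cells (median 15.1 TPM) and in 92.3% of the other 65 (median 1923 TPM).

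Some follicle-layer keratins were found more often in the Mut cells without Krt14, and others less often. Krt75 was detected in 54.2% of the 24 cells and in 20% of the other 65, Krt28 in 45.8% and 7.69%, and Krt25 in 25% and 3.08%. Krt71 was detected in 25% and 15.4%, but its means were 11.4 and 16.3 TPM. Krt80 and Krt16 were found less often, at 4.17% each in the 24 cells against 21.5% and 16.9%. These cells had no fewer genes detected, with a median of 4638.5 against 4365. The 24 cells were picked by their Krt14 level, so these values describe them and support no comparison of genotypes. Among the 8 WT P30 cells below 1 TPM of Krt14, Krt75 was found in 25%, Krt28 in 37.5% and Krt25 in 37.5%, beside 3.95%, 6.58% and 11.8% of the other 76.

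Genes of histone H2B were also examined, since the reporter of that sort encodes an H2B-GFP fusion behind the Krt14 promoter. Of 15 Hist1h2b genes, a set looked at after the data were seen, Hist1h2bb, Hist1h2bf and Hist1h2bm were detected together in 92.9%, 96.4% and 98.9% of the WT P30, WT P56 and Mut P56 bulge cells. Their sum was above the limit in 0 of 81 WT melanocytes, 1 of 84 Mut melanocytes, 2 of 73 WT myeloid cells and 5 of 72 Mut myeloid cells. Outside the bulge tables the signal of these 3 genes was therefore rare. H2B genes are close copies, so the counting could split their reads, and values of single genes are uncertain. The sum of the 3 is therefore used, with some single genes given beside it. In Mut cells Hist1h2bb, Hist1h2bf and Hist1h2bm alone had Spearman correlations of 0.05, 0.31 and 0.28 with Krt14. The 3 were picked after they led the genes most like Krt14 at P30, so the P30 correlation below restates that choice. Whether reads of the reporter were counted on them was not tested.

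The H2B sum had a positive correlation with Krt14 in each bulge group. Spearman correlations over cells were 0.61 in WT P30 (84 cells), 0.46 in WT P56 (83 cells) and 0.26 in Mut P56 cells (89 cells). The cells of a group count as 1 sample, and these values were not compared by a test. With Krt5 they were 0.70, 0.52 and 0.42. In cells with Krt14 below 1 TPM, the sum had a median of 8.51 TPM at WT P30 (0 to 85.1, 8 cells) and 12.4 TPM at WT P56 (3.47 to 85.9, 3 cells). In the 24 such Mut cells it had a median of 172 TPM and ran from 33.6 to 459.95 TPM. With Krt14 at 1 TPM or more the medians were 193, 168 and 232 TPM. The cells below 1 TPM of Krt14 were unlike between the groups in other ways, since their median of Krt5 was 178 TPM at WT P30, 3447 at WT P56 and 1140.1 in Mut, and the 8 WT P30 cells include the cell with fibroblast markers. Hist1h2bc, the fourth H2B gene found in 25% or more of a bulge group, had correlations with Krt14 of -0.18, -0.01 and -0.18.

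**Figure D4:**
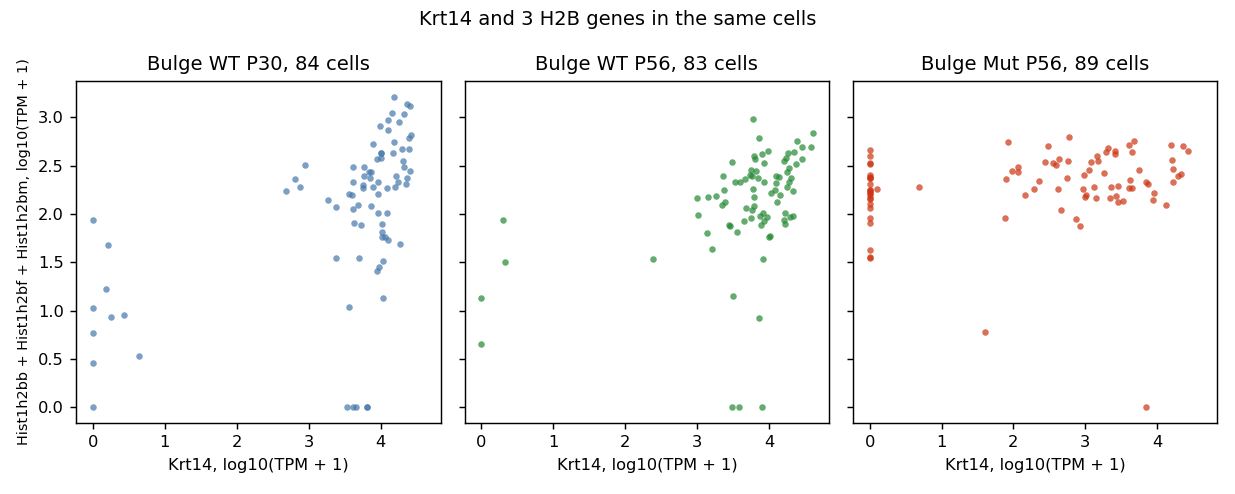
Krt14 TPM against the summed TPM of Hist1h2bb, Hist1h2bf and Hist1h2bm, both on log axes, 1 point per bulge cell, 1 panel per group. The 24 Mut cells under 1 TPM of Krt14 spread from 33.6 to 459.95 TPM of H2B RNA, above the median of 8.51 TPM of the 8 such WT P30 cells.

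Keratins of the companion layer, inner bulge and stressed epidermis split by group. Krt80, a type II keratin of differentiating keratinocytes, was detected in 53.6% (42.4 to 64.5) of WT P30, 56.6% (45.3 to 67.5) of WT P56 and 16.9% (9.75 to 26.3) of Mut P56 cells. Krt75, the type II keratin of the companion layer, had the reverse order, in 5.95% (1.96 to 13.3), 1.205% (0.0305 to 6.53) and 29.2% (20.1 to 39.8). Levels of both were low, with means of 35.2, 82.3 and 24.8 TPM for Krt80, and of 0.322 TPM in WT P56 and 15.9 TPM in Mut P56 cells for Krt75. The P30 mean of Krt75, 29.4 TPM, was 2.06 TPM without 1 cell.

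Krt6a and Krt16, a pair of the companion layer, inner bulge and wounded epidermis, were found in subsets of cells. Krt6a was detected in 22.6%, 7.23% and 11.2% of WT P30, WT P56 and Mut P56 cells, with means of 366, 1.79 and 84.9 TPM. Of the Mut mean, 1 cell held so much that 12.4 TPM remained without it. Krt16 was detected in 29.8%, 36.1% and 13.5%, with means of 328, 245 and 212 TPM. Without the highest cell of each group these were 259, 145 and 116 TPM. Krt6b was found in 15.5% of WT P30 cells, in 0 of 83 WT P56 cells (upper limit 3.61%), and in 6.74% of Mut cells. Krt79, known from the upper follicle, was found in 4.76%, 10.8% and 3.37%. Values of these genes are uncertain where sequence is shared, since 56.0% of the 75-base windows of Krt6a, 39.6% of those of Krt6b and 28.9% of those of Krt16 occur in another gene.

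Of the 7 suprabasal keratins listed, 3 reached 10% of a bulge group, and each was least frequent in Mut cells. Krt10 was detected in 48.8%, 57.8% and 40.4% of the WT P30, WT P56 and Mut P56 cells, Krt1, its partner, in 20.2%, 19.3% and 4.49%, and Krt77, a type II keratin of sweat ducts and epidermis, in 33.3%, 31.3% and 6.74%. The means of Krt10 were 59.6, 271 and 114 TPM, and the last was 71.03 TPM without 1 cell. At 100 TPM or more, both Krt10 and Krt1 were found in 7, 7 and 3 cells, and Krt10 without Krt1 in 2, 3 and 0 cells. Summed markers of differentiating interfollicular cells (Krtdap, Sbsn, Lor, Calm4, Ivl, Sprr1b) had medians of 354, 74.1 and 7.96 TPM, and their part in these shares was not tested. Krt10 overlaps an antisense gene, Gm11940. Of the windows of Krt10, 0.99% occur in that gene, and only reads from these cannot be told apart without strand.

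Of the 7 simple epithelial keratins listed, Krt8, Krt18 and Krt19 reached 10% of a bulge group, each in Mut cells. Krt19, which is also known from bulge cells, was detected in 8.33%, 1.205% and 20.2% of WT P30, WT P56 and Mut P56 cells. Krt8 was detected in 5.95%, 8.43% and 13.5%, and its partner Krt18 in 1.19%, 0 of 83 cells and 10.1%. All were at low levels, with means of at most 19.8 TPM, and the part of depth in the shares was not tested. Krt7 and Krt23 stayed at or below 3.61% and had their highest shares in WT cells, in WT P56 and WT P30 cells respectively. Of the windows of Krt8, 23.5% occur in another gene, a processed copy among them.

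Keratins of the inner root sheath, the sheath that moulds the growing hair, were most often found in the WT P30 and Mut P56 cells. At least 1 of the 8 listed was detected in 32 WT P30, 9 WT P56 and 31 Mut P56 cells, and at least 3 together in 6, 0 and 7 cells. Krt71, the type II member, was found in 22.6%, 3.61% and 17.98%, and the type I members Krt28 in 9.52%, 1.205% and 17.98%, Krt25 in 14.3%, 0 of 83 and 8.99%, and Krt27 in 11.9%, 6.02% and 12.4%. One P30 cell held 88.3% of this RNA in its group, with 56700 TPM of Krt71, 18220.0 of Krt27, 14659 of Krt25 and 2608 of Krt28. The same cell held 2519 TPM of Tchh, the inner root sheath protein trichohyalin, and 3.54 TPM of the 4 basal keratins. Without it the P30 mean of Krt71 was 95.2 TPM in place of 769. In Mut cells the highest sum was 1127 TPM and came with 989.9 TPM of basal keratins, so no Mut cell resembled that P30 cell in its levels.

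The 250 bases upstream of the start site are shown for these 4 genes because they were found together in cells. They are from RefSeq (GRCm38.p6), minus strand, 5′ to 3′, at chr15:101743098-101743347 for Krt71, chr11:99322952-99323201 for Krt25, chr11:99351119-99351368 for Krt27 and chr11:99374904-99375153 for Krt28. Capitals mark letters of known motifs, on either strand. TATAAA is the core promoter box. A motif of GATA factors is AGATAA. That of TCF/LEF factors is CTTTGA, which in Krt28 lies on the other strand.
Krt71: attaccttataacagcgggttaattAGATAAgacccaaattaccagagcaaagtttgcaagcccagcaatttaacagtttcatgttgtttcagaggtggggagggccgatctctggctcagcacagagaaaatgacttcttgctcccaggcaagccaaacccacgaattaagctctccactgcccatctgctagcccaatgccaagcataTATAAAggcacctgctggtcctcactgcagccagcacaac
Krt25: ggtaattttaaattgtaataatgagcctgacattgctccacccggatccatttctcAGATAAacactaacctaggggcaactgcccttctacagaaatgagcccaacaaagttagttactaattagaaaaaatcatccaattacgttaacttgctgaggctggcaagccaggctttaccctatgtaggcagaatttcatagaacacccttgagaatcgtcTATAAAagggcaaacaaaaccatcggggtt
Krt27: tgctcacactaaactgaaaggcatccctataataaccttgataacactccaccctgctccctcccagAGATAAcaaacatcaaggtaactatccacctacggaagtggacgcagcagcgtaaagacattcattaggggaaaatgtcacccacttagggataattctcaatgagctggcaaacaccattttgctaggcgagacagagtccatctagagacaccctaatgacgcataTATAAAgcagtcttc
Krt28: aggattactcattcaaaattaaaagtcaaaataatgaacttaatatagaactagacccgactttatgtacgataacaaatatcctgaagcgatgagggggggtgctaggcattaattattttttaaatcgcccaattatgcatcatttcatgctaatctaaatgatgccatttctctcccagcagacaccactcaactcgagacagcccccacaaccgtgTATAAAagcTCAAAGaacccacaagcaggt
With positions counted back from the RefSeq start site, all 4 hold TATAAA, beginning at -40, -30, -15 and -30 in the order shown. The start in GENCODE is the same for Krt25 and Krt28. It differs for Krt71 (101743109, inside the window shown) and for Krt27 (99351104), so the positions in these 2 genes depend on the annotation. Krt71, Krt25 and Krt27 hold AGATAA at -225, -194 and -183, and Krt28 holds the TCF/LEF letters at -21. Over the 36 windows of 300 bases that matched 35 of the 51 keratins, TATAAA was in 19 on either strand, where 13.6% of 32851 windows of all genes held it. AGATAA was in 10 (11.2% of all), CTTTGA in 8 (16.003%), the AP-1 letters TGANTCA in 2 (7.81%), the AP-2 letters GCCNNNGGC in 6 (16.6%) and the Sp1 letters GGGCGG in 2 (35.7%). A match describes the letters and shows no binding.

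Of the 14 hair shaft keratins, 1 reached 10% of a bulge group. Krt32, the type I keratin of the hair cuticle, was detected in 28.6% (19.2 to 39.5) of WT P30, 18.1% (10.5 to 28.05) of WT P56 and 11.2% (5.52 to 19.7) of Mut P56 cells, with means of 58.9, 23.2 and 18.99 TPM. Hoxc13, a regulator of hair keratins, ran in the other direction and was detected in 9.52%, 18.1% and 43.8%. Krt32 also overlaps an antisense gene, Gm11571. The 5 mucosal, corneal and other keratins listed stayed under 10%.

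Type I and type II RNA ran together cell by cell. The Spearman correlation of the summed type I and type II TPM was 0.68 in WT P30 (84 cells), 0.88 in WT P56 (83 cells) and 0.77 in Mut P56 cells (89 cells). Type I RNA exceeded type II RNA, with a median ratio of 9.33, 3.11 and 3.14. Medians were 20601, 15309 and 7485 TPM for type I and 2157, 4749 and 2154 TPM for type II, so WT P30 and Mut P56 cells differed in the type I sum. Krt14 carried much of the relation, since without it the correlations were 0.34, 0.67 and 0.58.

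Pairs of keratins were compared over the cells of a group, for keratins found in at least 25% of its cells. This gave 36, 28 and 15 pairs in WT P30, WT P56 and Mut P56 cells, with median correlations of 0.23, 0.15 and -0.02, of which 4, 4 and 2 pairs reached 0.5. The partners Krt5 and Krt14 stayed close in each group, at 0.72, 0.85 and 0.68. Krt5 and Krt15 had 0.49, 0.70 and 0.30. Krt77 and Krt80 had 0.64 and 0.59 in the WT groups. In Mut cells Krt14 had 0.52 with Krt17 and -0.42 with Krt75. These are descriptions over cells of 1 sample per group, and the depth of each cell is unknown. Genes detected per cell had correlations of -0.18, 0.12 and -0.35 with Krt14.

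Krt15 and Krt17 ran against each other at P30, although many cells held both. Their correlation was -0.63 in WT P30, -0.32 in WT P56 and -0.09 in Mut P56 cells, and among Mut cells with 3000 to 5000 genes it was -0.36. At 100 TPM or more, both were found in 33.3% of WT P30, 63.9% of WT P56 and 64.04% of Mut P56 cells. Krt17 without Krt15 was found in 29.8% (20.3 to 40.7) of the P30 cells and in 0 of 83 WT P56 and 6.74% of Mut cells. Krt80 ran with Krt15 and against Krt17, with correlations of 0.77 and -0.63 at WT P30 and 0.41 and -0.39 at WT P56. Krt6a, found in fewer cells, had 0.55 with Krt17 at P30. The mean of the immediate early genes had correlations of 0.51 with Krt15, 0.55 with Krt80 and -0.39 with Krt17 at WT P30. At WT P56 these were 0.06, 0.25 and 0.09, and the part of these genes was not tested.

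**Figure D5:**
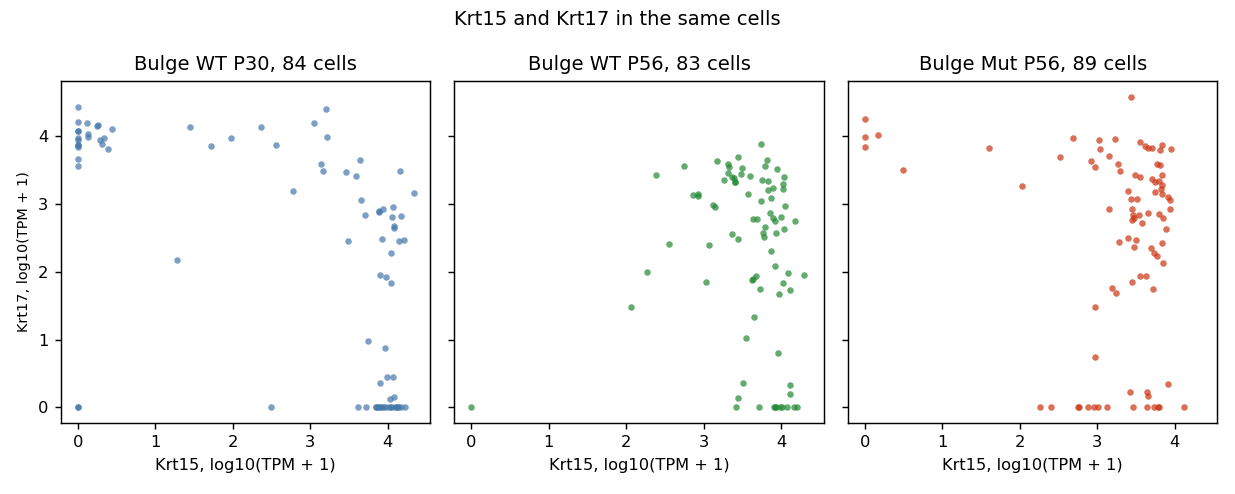
Krt15 TPM against Krt17 TPM, both on log axes, 1 point per bulge cell, 1 panel per group. In WT P30 cells many points lie along both axes (Spearman -0.63), and 33.3% of the cells hold both keratins at 100 TPM or more. In the P56 groups most cells hold both at that level.

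The genes outside the family most like each keratin were ranked by likeness, first at P30. For Krt15 they were Fth1 (0.77), Tgfbi (0.77), Clca3a2 (0.75), Col17a1 (0.73), a hemidesmosome collagen, and Anxa8 (0.71). For Krt17 they were Sox9 (0.80), a transcription factor of outer root sheath and bulge progenitors, Tpm2 (0.78), S100a1 (0.78), Cald1 (0.76) and Insig2 (0.72). Krt15 in turn had -0.67 with Sox9. The study names Chit1, Krt6a and Krt80 as inner bulge genes. At P30 Chit1 had 0.62 with Krt15, 0.51 with Krt80 and -0.45 with Krt17, but -0.21 with Krt6a. Krt6a was closest to Pdzrn3 (0.66), and Krt14 to Hist1h2bf (0.62), Hist1h2bm (0.61) and Hist1h2bb (0.59), ahead of Anxa2 (0.52) and Sh3bgrl3 (0.50). The likeness is the Spearman correlation over 84 cells, ranked among up to 4169 genes.

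At P56 fewer of these leaders were strong. In WT cells (83 cells, up to 6272 genes) Krt14 was closest to Thbs2 (0.70), Slco2a1 (0.67) and Fth1 (0.66), Krt15 to Cd9 (0.69) and Lamb3 (0.65), a chain of the basement membrane protein laminin-332, Krt17 to Abi3bp (0.54) and Runx1 (0.50), and Krt6a to Dsg3 (0.43). In Mut cells (89 cells, up to 6274 genes) Krt14 was closest to Anxa2 (0.70), Apoe (0.67), Col17a1 (0.67), Capg (0.64) and S100a6 (0.62). Krt17 was again closest to Sox9 (0.72), followed by Sfrp1 (0.66), a secreted Wnt inhibitor, and S100a6 (0.60). Krt15 was closest to Ackr3 (0.57) and Sfn (0.52), and Krt6a to Ifitm3 (0.41).

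Genes listed as filament linkers or as regulators of keratin genes were counted in the same way. Their counts of 0 or 1 are too small to read against the shares of all genes given above. Most of the 13 filament linkers listed are desmosome or hemidesmosome plaque genes, and Flg, Tchh and Tchp are listed with them. In Mut against WT P56 cells 10 linkers were measured and 0 were past the fold, with a median of -0.20. Against WT P30 cells 1 of 10 was, Dsp, the desmosomal linker desmoplakin, lower in Mut by 1.03 (85.03 against 266 TPM). Between the WT ages 0 of 9 was past the fold. Of 18 regulators measured in either Mut comparison, 1 was past the fold, Vdr, the vitamin D receptor, with 1.30 against WT P56 and 1.78 against WT P30 cells. Its mean was 438 TPM in Mut, 89.3 in WT P56 and 30.4 in WT P30 cells, and it was detected in 93.3%, 72.3% and 41.7%. Among other filament genes Lmna, lamin A, was higher at WT P56 than at WT P30 by 1.01.

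Melanocytes are pigment cells and not known for follicle keratins, and most of the keratin TPM in their tables was held by few cells. Any keratin was detected in 24 of 81 WT melanocytes (29.6%) and 65 of 84 Mut melanocytes (77.4%), with medians of the sum at 0 and 12.5 TPM. A sum of at least 1000 TPM was found in 3 WT (3.70%, 0.770 to 10.4) and 7 Mut melanocytes (8.33%, 3.42 to 16.4), and the 5 highest cells held 90.6% and 83.8% of the signal. Between Mut and WT melanocytes only 5 of the 51 keratins were frequent enough to be compared. None of these was past the fold, where 0.241% of 8305 genes were higher and 0.301% lower. The keratins with the highest means were Krt14 (193 TPM), Krt5 (50.8), Krt15 (44.6), Krt17 (34.1) and Krt10 (10.5) in WT, and Krt17 (251), Krt14 (138), Krt5 (136), Krt15 (78.7) and Krt71 (65.7) in Mut melanocytes. Without the highest cell of each gene, Krt14 was at 91.4, Krt5 at 12.9, Krt15 at 11.6 and Krt17 at 9.71 TPM in WT melanocytes, and Krt5 was at 89.1, Krt17 at 87.8, Krt14 at 75.4, Krt15 at 26.4 and Krt71 at 21.3 TPM in Mut melanocytes.

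The high melanocytes held keratinocyte genes to unlike degrees. Of the 12 listed, the 3 WT cells held 3 to 10 and the 7 Mut cells held 2 to 11. Melanocytes with keratin sums under 1 TPM held a median of 1 in both groups. The highest WT cell had 14885 TPM of keratins, led by Krt14 (8325), with 9 of 12 keratinocyte genes and 6883 TPM of 7 of 8 melanocyte markers. The highest Mut cell had 23866 TPM, led by Krt17 (13751), with 1 melanocyte marker at 62.7 TPM. It was the 1 high cell with so few markers of its label. High cells had a median of 5491 (WT) and 4883 (Mut) genes detected, against 2089 and 2731 in cells with keratin sums under 1 TPM. The high cells ran from 2061 to 6298 genes in WT and from 1013 to 5925 in Mut, so some had no more genes than other cells. No doublet caller was run, and the part of doublets was not tested.

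The composition of the signal rested on few cells. Krt14, Krt15, Krt17 and Krt5 made up 54.6%, 12.6%, 9.65% and 14.4% of the keratin TPM in WT melanocytes, against 41.98%, 25.5%, 5.06% and 22.96% in WT P56 bulge cells. In Mut melanocytes the shares were 18.4%, 10.5%, 33.4% and 18.2%, and inner root sheath keratins made up 13.6%. Without the cell with most keratin TPM, the shares in the same order were 53.2%, 6.76%, 14.5% and 7.48% in WT and 15.99%, 15.1%, 18.6% and 19.3% in Mut melanocytes, with 21.8% for the inner root sheath keratins in Mut. One Mut melanocyte with 1013 genes held 3746 TPM of Krt71 and 1311 of Krt28 beside 9.43 TPM of basal keratins. Besides the high cells, Mut melanocytes held low levels widely, with Krt14 in 33.3% (median 2.995 TPM where detected) and Krt5 in 29.8% (5.39 TPM). In WT melanocytes Krt14 was found in 9.88%, with a median of 407 TPM where detected.

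Krt80 in myeloid cells and Krt10 in WT melanocytes were found mostly without other keratins, while in Mut melanocytes 13 of the 21 cells with Krt10 held another. Krt10 was detected in 14 WT (17.3%) and 21 Mut melanocytes (25%), alone in 10 and 8 of them, at medians of 48.99 and 48.2 TPM. Krt80 was detected in 11 WT (15.1%) and 13 Mut myeloid cells (18.1%), alone in 9 and 11, at medians of 31.9 and 31.7 TPM. Each was rare in the other lineage, where Krt80 was in 1 of 81 WT and 0 of 84 Mut melanocytes and Krt10 in 2 of 73 WT and 3 of 72 Mut myeloid cells. The order of these keratins thus differed between the melanocyte and the myeloid tables. Krt80 overlaps an antisense gene, Gm35853. Of the windows of Krt80, 2.575% occur in that gene, and only reads from these cannot be told apart without strand.

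Myeloid cells held the least keratin signal. Any keratin was detected in 21.9% of WT and 41.7% of Mut cells, with medians of 0 TPM and highest sums of 117 and 654 TPM. No cell reached 1000 TPM, 0 of 73 and 0 of 72, which allow shares of up to 4.11% and 4.17%. Only 1 of the 51 keratins, Krt80, was frequent enough to be compared between the myeloid groups. It was not past the fold, where 0.013% of 7683 genes were higher and 0.143% lower in Mut. By mean the WT cells were led by Krt80 (5.37 TPM), Krt18 (2.07), Krt8 (0.586), Krt13 (0.441) and Krt10 (0.367), and the Mut cells by Krt17 (9.94), Krt80 (6.17), Krt14 (4.94), Krt16 (2.95) and Krt71 (2.57). Of these means Krt80 rested least on 1 cell. In Mut cells, leaving out the highest cell of each gene gave 5.02 TPM for Krt80, 3.48 for Krt17, 3.23 for Krt14, 0.390 for Krt16 and 0 for Krt71, and in WT cells it gave 3.89 for Krt80, 0.911 for Krt18, 0.129 for Krt10 and 0 for Krt8 and Krt13. Krt5 and Krt14 were at 0 in all 73 WT myeloid cells. In the 72 Mut myeloid cells Krt5 was detected in 3 and Krt14 in 5, at most 6.94%.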

How the data were processed

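Single cells of 7 groups were caught on microfluidic chips, and full-length cDNA was sequenced. The deposited values are TPM per gene and cell in 7 tables. The authors used STAR (version 2.4.2 per the submitters' processing notes) on build GRCm38 (mm10), and RSEM with GENCODE genes. FPKM and TPM both occur in the methods, and the deposited tables name TPM, which holds no depth. The authors left out chambers seen to hold 0 or several cells, and no doublet caller was run here.

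Values of 38 symbols with several identifiers were averaged, leaving 30959 symbols, and 27 symbols that some tables held as dates were restored. There was 1 column with no matching label, which was not used, and the 77 mutant myeloid columns carry no well and entered by group. Kept cells had 750000 or more TPM in total and up to 20% of it mitochondrial. Bulge cells also had 2000 to 7000 genes, as in the methods, and other cells 1000 or more. In all 566 of 605 cells were kept. No cell's values were identical to those of another.

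Each cell was scaled to 10000 and transformed as log2(value + 1), and differences are of group means among genes that 10% or more of either group held at 1 TPM. The 95% intervals of shares are exact (Clopper-Pearson), with 3 cells of the total as the upper limit of a share of 0. Correlations are Spearman's, with no p, and scripts were tested on simulated data. Tools were SciPy 1.17.1, pandas 2.3.3, NumPy 2.4.6 and matplotlib 3.10.9 under Python 3.11.15. Gene positions came from GENCODE release 21 and promoters from RefSeq, both on GRCm38. All keratins were counted, those found in 10% or more of a bulge group were named with their values, and so were the 5 with the highest mean in each melanocyte or myeloid group and up to 5 genes most like Krt14, Krt15, Krt17 and Krt6a. The members and lists were chosen with earlier results of these data known. Alternatives tried were other cell filters, detection limits, pseudocounts and correlation measures.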

Additional observations from a re-analysis of the deposited data

How the results depend on the processing

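Each group counts as 1 sample of unnamed animals, so the spread between mice is unknown, and TPM keeps no depth. No paired analysis was possible because each group is 1 sample, the results come from no test, and the numbers in the labels only name cells. Krt14 was lower in Mut than in either WT bulge group under all alternatives run, and no difference past the fold reversed. Of the values under the alternatives that answer a comparison, 138 stayed as reported and 27 moved, all given here. The number of keratins past the fold rose on scales that call many more genes. With a pseudocount on TPM as deposited it was 9 (3 higher, 6 lower) for Mut minus WT P56 bulge cells, 8 (2 higher, 6 lower) for Mut minus WT P30 and 4 (2 higher, 2 lower) for WT P56 minus WT P30, where 19.7%, 33.3% and 27.3% of genes were past the fold and the median of all genes was 0.12, 0.62 and 0.53. By the ratio of mean TPM it was 11 (7 higher, 4 lower), 11 (4 higher, 7 lower) and 12 (5 higher, 7 lower), where 25.2%, 41.9% and 37.5% of genes were past the fold and the median of all genes was 0.13, 0.65 and 0.53. Of all genes past the fold, 38.8%, 59.2% and 63.8% were higher in the report's scale, 58.99%, 90.8% and 91.1% with the pseudocount on TPM as deposited, and 55.4%, 87.2% and 85.3% by the ratio of means. Both scales gave 2 keratins between the melanocyte groups, a count too small to read. With 3000 to 5000 genes per cell the number was 2 for Mut minus WT P56 and 1 for WT P56 minus WT P30, and the correlation of Krt15 with Krt17 in Mut cells was -0.36. Without cells that carry markers of other lineages the number was 3 for WT P56 minus WT P30, Krt17 joining at -1.02. Counts of 1 to 3 keratins in these cell sets are too small to read against the share of all genes. Detection in at least 25% of cells left 9 keratins in WT P30 and 6 in Mut bulge cells, 3 in Mut melanocytes and 0 in WT melanocytes and both myeloid groups. WT melanocytes with 3000 to 5000 genes had 3, and Mut melanocytes had 3 at 10 TPM. Without Krt14 the correlation of type I with type II sums was 0.34 in WT P30 and 0.67 in WT P56 cells, and the median log2 ratio of the sums was 2.28 and 0.57. A keratin sum of at least 100 TPM was found in 16.05% of WT melanocytes, 28.6% of Mut melanocytes and 9.72% of Mut myeloid cells, and one of at least 10000 TPM in 2.38% of Mut melanocytes. Leaving out 3 bulge cells of extreme keratin content, an alternative chosen after seeing the data, changed no count of keratins past the fold.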
